A study of Rattus norvegicus with 8 samples.

Results

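miR-224 is a microRNA (miRNA), a small non-coding RNA that lowers the output of messenger RNAs to which it pairs through its seed, the bases 2 to 8 from its 5′ end. The miR-224/452 cluster was taken as every row of the deposited count table whose name is miR-224 or miR-452, with either arm of the hairpin. The rule found 2 of the 620 miRNAs listed, rno-miR-224 and rno-miR-224*, the other arm of the same hairpin, called miR-224 and miR-224* below. miR-452, the partner of miR-224 in other mammals, was not analysed here. The pair was proposed with its rise in these kidneys already known, so that its differences between the groups are given below as a description, and no test result for the pair is used as support.

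Small RNA was sequenced from the kidneys of 4 control rats and 4 rats treated with aristolochic acid (AA rats), the toxin of Aristolochia plants that damages the kidney, with 1 library per rat, to learn which miRNAs change under a dose that causes kidney tumors. All 8 were male Fisher 344 rats carrying the Big Blue transgene, a reporter for mutations, and treatment began at 6 weeks of age. Both groups were treated 5 times a week, the controls with 0.9% sodium chloride. Each gavage of the AA rats held 10.0 mg of AA per kg, as sodium salt, in a volume of 4 ml per kg. The labels give all rats an age of 18 weeks at the end and a treatment of 12, 13, 14 and 15 weeks for rats 1, 2, 3 and 4 in either group, whereas the methods of the study give 12 weeks for all. From a start at 6 weeks of age, the labelled age of 18 weeks goes with 12 weeks of treatment in every rat.

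A miRNA hairpin is cut by Drosha and Dicer into a short duplex. One strand usually stays in the Argonaute protein and the other, the star strand, is mostly lost. miR-224 is known for its high level in hepatocellular carcinoma and in clear cell renal carcinoma, and as a target of NF-κB and of TGF-β signalling in other tissues. Its hairpin lies in an intron of GABRE, the gene of the epsilon subunit of the GABA type A receptor, in the human genome.

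The sequences of the pair are shown because their seeds define which messenger RNAs each arm can pair with. They were taken from RefSeq (GRCr8), where both rows were matched, miR-224 as the 5p arm at chrX:155107183-155107204 and miR-224* as the 3p arm at chrX:155107136-155107157, both on the minus strand. The seeds are in capitals.
miR-224: cAAGUCACuagugguuccguuu
miR-224*: aAAUGGUGcccuagugacuaca

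The hairpin gene, Mir224, covers 82 bases at chrX:155107130-155107211 on the minus strand of GRCr8. In the RefSeq gene table it lies within the span of Gabre, which is transcribed from the same strand, and the protein-coding genes next to Gabre are Magea4 and Magea10. Whether it is intronic in the rat was not tested, since the exons were not used here. In the predicted fold of the hairpin, 18 base pairs joined both arms and 6 of the 7 seed bases of miR-224 were paired. Each arm is 22 bases long. Whether adaptor ligation and PCR captured both arms alike was not tested.

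The seed of neither arm was shared by any of the 691 other mature rat miRNAs of the sequence table. The only one with the same bases 2 to 7 as miR-224 was miR-6325, which was not analysed here. It is printed to show where the likeness ends, with the shared bases in capitals.
miR-6325: aAAGUCAgacagagacucugcag

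The closest other mature sequence differed from miR-224 by 9 edits (miR-105) and from miR-224* by 8 edits (miR-33-3p). Neither arm had a near-identical copy among these sequences. The rule of the authors' counting for reads that match several miRNAs is not given in the sources used here.

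miR-224, the guide arm, was a rare miRNA of the control kidney. It had 16, 33, 32 and 9 counts in controls 1 to 4. It had 152, 333, 133 and 339 counts in AA rats 1 to 4. These came from libraries with 13736874 to 15525397 counts in controls and 13412373 to 15616670 in the AA group, so that depth was alike in both groups.

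Divided by the size factor of each library, which corrects for depth and composition, the level of miR-224 was 16.6, 36.2, 30.3 and 11.0 normalized counts in controls 1 to 4. It was 171, 260, 131 and 276 normalized counts in AA rats 1 to 4. The groups did not overlap, and the lowest AA rat was 3.62-fold above the highest control rat. The mean was 23.6 ± 11.7 normalized counts (SD, n = 4) in controls and 209 ± 69.8 (SD, n = 4) in the AA group. The ratio of these means was 8.89, or 3.15 on the log2 scale. As a difference of mean log2 values (pseudocount 1), the change was 3.17 with a standard error of 0.45.

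**Figure D1:**
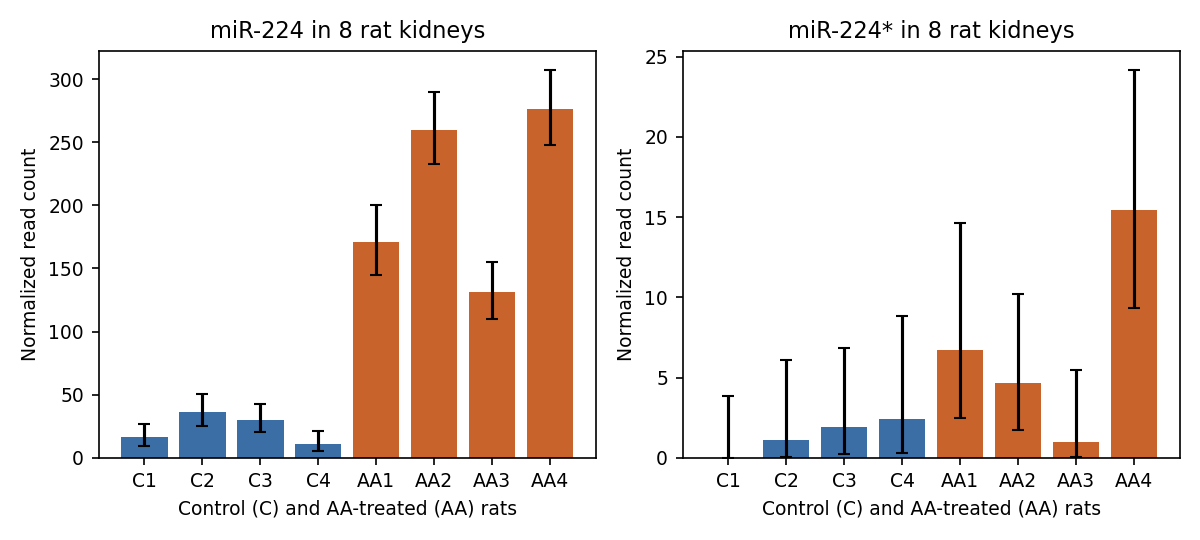
Normalized read counts of miR-224 (left) and miR-224* (right) in each control rat (C1 to C4) and AA rat (AA1 to AA4), with exact 95% Poisson intervals as error bars. For miR-224 the 4 AA rats sit between 131 and 276, all above the controls, whereas for miR-224* AA rat 3 lies among the controls.

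The AA rats differed among themselves by more than counting error. The exact 95% Poisson intervals were 145 to 200 normalized counts in AA rat 1 and 110 to 155 in AA rat 3. They were 233 to 289 in AA rat 2 and 247 to 307 in AA rat 4. Rats 2 and 4 thus lay above rats 1 and 3 without overlap of the intervals, and within either of these pairs the intervals overlapped. Among the controls, the interval of rat 4 (5.03 to 20.9) lay below that of rat 2 (24.9 to 50.9), and the others overlapped with their neighbours. The coefficient of variation was 49.8% in the control and 33.3% in the AA group. Reads copied by PCR are not independent molecules, so that these intervals cover counting error only.

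Within the libraries, miR-224 moved up among the other miRNAs. By its counts it ranked between 279 and 350 of the 620 miRNAs in controls and between 187 and 221 in the AA group. It made up 0.655 to 2.25 of every 1000000 counts in controls and 9.63 to 21.9 in the AA group. It therefore remained a small part of the kidney's miRNAs in every rat.

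miR-224*, the star arm, was near the limit of detection. It had 0, 1, 2 and 2 counts in controls 1 to 4. It had 6, 6, 1 and 19 counts in AA rats 1 to 4. AA rat 3 was within the range of the controls, and AA rat 4 alone held 19 of the 32 counts of its group. The mean was 1.36 ± 1.06 normalized counts (SD, n = 4) in controls and 6.97 ± 6.15 (SD, n = 4) in the AA group. Since no control rat had more than 3 counts, the level that a count of 0 allows, the change is given against 3 counts per library and was at least 2.16-fold. Without AA rat 4 it was at least 1.29-fold.

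Over all 620 miRNAs, 56 (9.03%) differed between the groups, and 36 (5.81%) were higher in the AA group with an adjusted p under 0.05 and a fold change over 1.5 (quasi-likelihood test of edgeR, Benjamini-Hochberg adjusted p). Of the pair, miR-224 was among them and miR-224* was not, although it was in the fit without AA rat 3. Groups that did not overlap, with the AA rats higher, were found for 60 miRNAs (9.68%), and again miR-224 was among these and miR-224* was not. The pair was chosen on this contrast, and nothing is read from these counts.

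The share of the star arm does not depend on how libraries are scaled, since both arms come from the same hairpin and library. It was 0 of 16 hairpin counts in control rat 1, which allows a share of up to 20.6% (exact Clopper-Pearson 95% interval), 1 of 34 in control rat 2, 2 of 34 in control rat 3 and 2 of 11 in control rat 4. In AA rats 1 to 4 it was 6 of 158, 6 of 339, 1 of 134 and 19 of 358. Control rat 4, with the highest share, also had the fewest hairpin counts. Summed over the rats, miR-224* made up 5.26% of the hairpin counts in controls (exact Clopper-Pearson 95% interval 1.73% to 11.9%) and 3.24% in the AA group (2.22% to 4.54%). These intervals cover counting error only and leave out the spread between rats. Averaged over rats, the share was 6.75% ± 7.99 in controls and 2.91% ± 2.04 in the AA group (SD, n = 4 each), and the ranges of the groups, 0% to 18.2% and 0.746% to 5.31%, overlapped. The sum of the AA rats rested on AA rat 4, without which it was 2.06%. No difference in the balance of the arms is read from these counts.

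**Figure D2:**
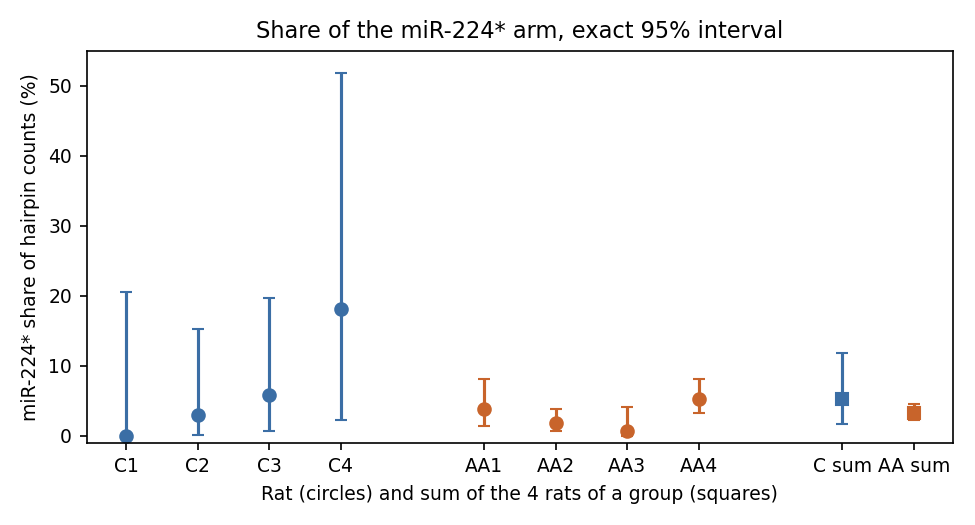
Share of miR-224* in the counts of its hairpin, in percent, with exact Clopper-Pearson 95% intervals, for each rat (circles) and for the sum of the 4 rats of a group (squares). The interval of control rat 4 reaches from 2.28% to 51.8%, and those of the group sums overlap.

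miR-224 was the dominant arm in every rat. Over all rats miR-224* held 3.41% of the hairpin counts (2.41% to 4.67%). Of these 1084 counts, 989 came from the AA rats, so that the share is mostly theirs. The table lists both arms, as a name with and without a star, for 142 hairpins with at least 100 counts. In the other 141, the median share of the star arm was 1.48%, with quartiles of 0.301% and 9.67%, and 90 had a lower share than the miR-224 hairpin. Its arms were thus within the middle part of the range of these hairpins.

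By size of its change, miR-224 took place 12 of the 370 miRNAs with a mean of at least 10 normalized counts over the 8 rats, ordered by the ratio of AA to control mean. Their median ratio was 1.01, and 5% of them were above 3.86. The pair was chosen for its rise, so that these places are a description. Of the 73 miRNAs with a control mean within 2 times that of miR-224, between 11.8 and 47.1 normalized counts, it took place 3, with a median ratio of 0.985. The highest of these was miR-34c*, the star arm of a hairpin known to be activated by p53, at 10.96.

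**Figure D3:**
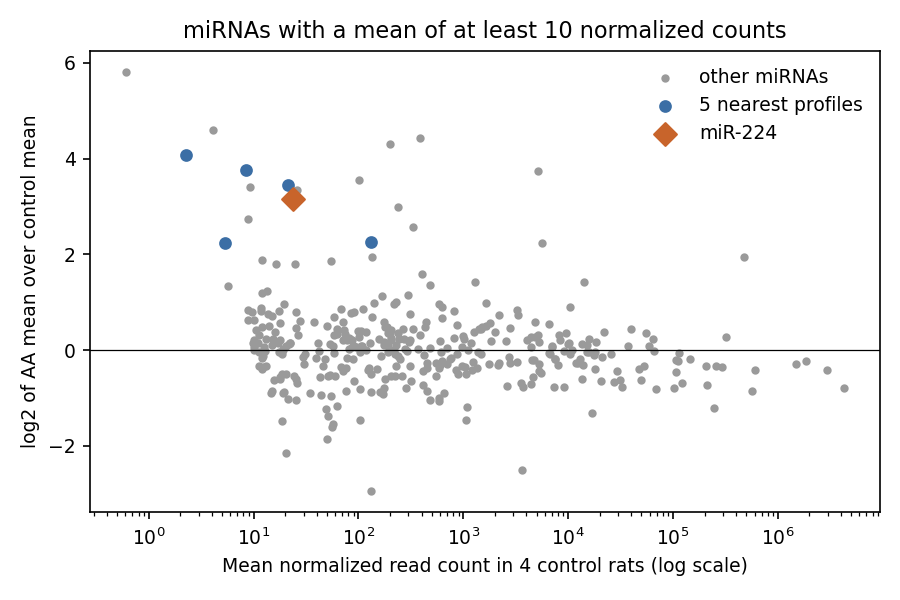
log2 of the ratio of AA to control mean against the mean normalized count in the 4 controls (log axis) for miRNAs with a mean of at least 10 normalized counts over the 8 rats. miR-224 (diamond) lies at 3.15, at a control level of 23.6 where the median ratio of miRNAs of like level was 0.985, and the 5 miRNAs nearest in profile are in blue.

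The miRNAs whose profile over the 8 rats was most like that of miR-224 were found by the mean absolute difference of their log2 values (pseudocount 1), each centred on its own mean. Of 369 miRNAs compared, the nearest were miR-34c* (0.39), miR-34b (0.46) and miR-34a* (0.52), all of the p53-responsive miR-34 family, followed by miR-130b (0.56) and miR-466c (0.62). The median over all was 1.59 and the next one, miR-449a, was at 0.66. The measure takes in the difference between the groups as well as the spread within them, so that it favours miRNAs that rose as miR-224 did. The filter on the mean over all rats favours them too, since miR-34b, miR-34a* and miR-466c, with control means of 8.55, 2.25 and 5.30 normalized counts, passed it through the AA rats. The order is a description of likeness, and nothing is read from it.

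Within the groups the nearest miRNAs differed in their pattern. miR-34c* had 232, 264, 219 and 218 normalized counts in AA rats 1 to 4, so that the rats were nearly level where miR-224 spanned 2.10-fold. miR-466c had 19.1, 30.4, 10.8 and 39.1 normalized counts in AA rats 1 to 4, with rat 4 highest and rat 3 lowest. In the controls it had 4, 7, 6 and 3 counts, too few to order the rats. miR-130b had 720, 599, 404 and 757 normalized counts in AA rats 1 to 4, with rat 4 highest and rat 3 lowest as for miR-224. miR-224* also had rat 4 highest and rat 3 lowest among the AA rats.

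**Figure D4:**
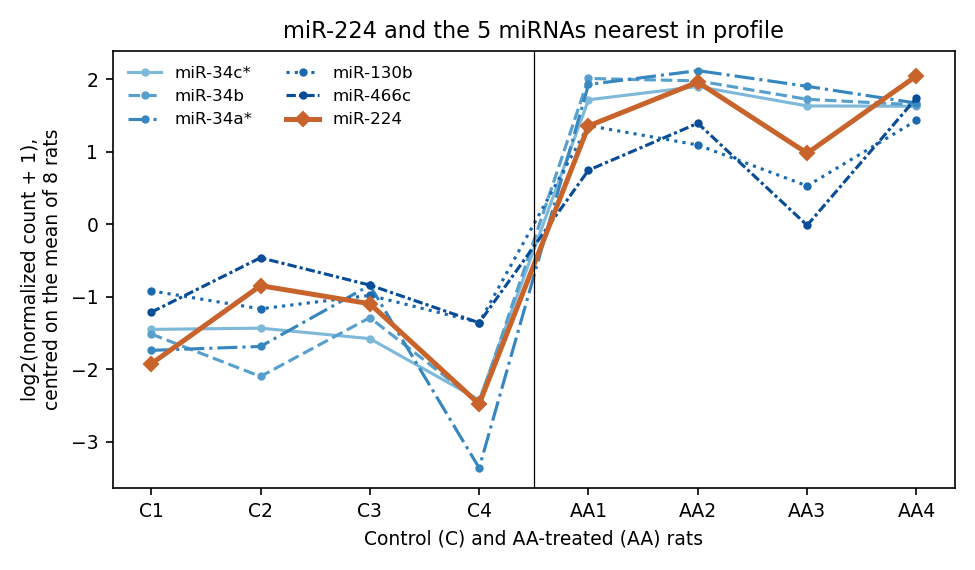
log2(normalized count + 1), centred on the mean of the 8 rats, of miR-224 and the 5 miRNAs nearest to it in profile, for controls (C1 to C4) and AA rats (AA1 to AA4). All 6 are higher in each AA rat than in each control rat.

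The hairpin genes of 617 of the 620 miRNAs were found in the RefSeq gene table. Of these miRNAs, 84 besides the pair came from 48 hairpins that lie on the X chromosome only, where Mir224 is the last of the measured hairpin genes in chromosome order. In the comparison of the groups, 7 of the 84 (8.33%) rose and 0 fell, beside 5.81% of all miRNAs that rose and 3.23% that fell (quasi-likelihood test of edgeR, Benjamini-Hochberg adjusted p). At an unadjusted p under 0.05 (edgeR) there were 21 of the 84 (25%), beside 148 of all 620 (23.9%). This share is close to the background, but it counts both directions together. By direction alone, 64 of the 84 (76.2%) had a log2 fold change above 0, beside 320 of all 620 (51.6%). DESeq2 gave 10 X-linked miRNAs that rose (11.9%) and 0 that fell, beside 44 (7.10%) and 30 (4.84%) of all 620. The number rested on single rats. Without controls 1, 2, 3 or 4 it was 1, 2, 0 and 2 (1.19%, 2.38%, 0% and 2.38%), beside 4.52%, 4.68%, 3.87% and 4.35% of all miRNAs that rose in the same fits, so that the X-linked share was below that of all miRNAs. It was 3 (3.57%, beside 5.65%) without AA rat 1 and 14 (16.7%, beside 6.77%) without AA rat 2. Without AA rat 3 it was 9 (10.7%, beside 7.1%), and without AA rat 4 it was 6 (7.14%, beside 5.16%). In the edgeR fit without control rat 3, 18 of the 84 (21.4%) had an unadjusted p under 0.05, beside 121 of all 620 (19.5%).

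The X-linked miRNAs had a median log2 fold change of 0.40, against 0.05 for all 620. Among those with a mean of at least 10 normalized counts, the medians were 0.33 for 52 X-linked miRNAs and 0.02 for 370 in all. Scaled by total counts instead, the median of all miRNAs moved to 0.31 and that of the X-linked ones to 0.67, since another scaling moves all miRNAs of a library alike.

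Of the 4 with the smallest p, miR-322 and miR-503 belong to a cluster known to restrain the cell cycle. miR-322 had 3279 ± 393 normalized counts in controls and rose 1.80-fold to 5887 ± 1392 (SD, n = 4 each, adjusted p = 0.0227 from edgeR). miR-503 rose 2.70-fold, from 1294 ± 131 to 3492 ± 2073 (SD, n = 4 each, adjusted p = 0.0245 from edgeR), although AA rat 3, at 1200, was just below the lowest control. miR-223, a miRNA of myeloid cells that is also among the leukocyte markers below, rose 1.94-fold, from 590 ± 45.5 to 1147 ± 341 (SD, n = 4 each, adjusted p = 0.0231 from edgeR). miR-881 had 0, 0, 0 and 2 counts in controls 1 to 4 and 102, 6, 17 and 2 in AA rats 1 to 4 (edgeR, adjusted p = 0.0223). Its AA mean was 10.6-fold against 3 counts per library, the level set for miR-224* above. This rested on AA rat 1. Without that rat the AA mean was 2.37-fold against this level and miR-881 did not pass the test. AA rat 4, at 1.63 normalized counts, was below control rat 4, at 2.44. Each of the 4 lost its call in 3 or 4 of the 8 fits with 1 rat left out. miR-322 lost it without any 1 of the controls, miR-223 without control 1, 2 or 3, and miR-503 and miR-881 without control 1, 3 or 4 or AA rat 1.

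The hairpins closest to Mir224 among those measured were Mir547 and Mir201, and their miRNAs did not pass the test. miR-547 had 246 ± 54.2 normalized counts in the control and 289 ± 143 in the AA group (SD, n = 4 each, adjusted p = 0.704 from edgeR). miR-201 had 230 ± 19.4 and 183 ± 131 (SD, n = 4 each, adjusted p = 0.624 from edgeR). Their star arms had log2 fold changes of -0.33 and 0.31 and did not pass it either. Farther from Mir224 lay a run of 11 hairpins, from Mir743a to Mir465, with 15 miRNAs, of which 13 had a mean below 10 normalized counts. Of the 7 X-linked miRNAs that rose, 2 came from this run, miR-741-3p (adjusted p = 0.0252 from edgeR) and miR-881. Thus 2 of the 15 rose, beside 5.81% of all miRNAs, and the groups overlapped for both. These 15 summed to 3, 2, 0 and 13 counts in controls 1 to 4 and to 515, 29, 89 and 11 in AA rats 1 to 4, with 79.97% of the counts of the AA rats in rat 1. miR-224 had no such weight on 1 rat, and AA rat 1 was only the third highest for it.

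**Figure D5:**
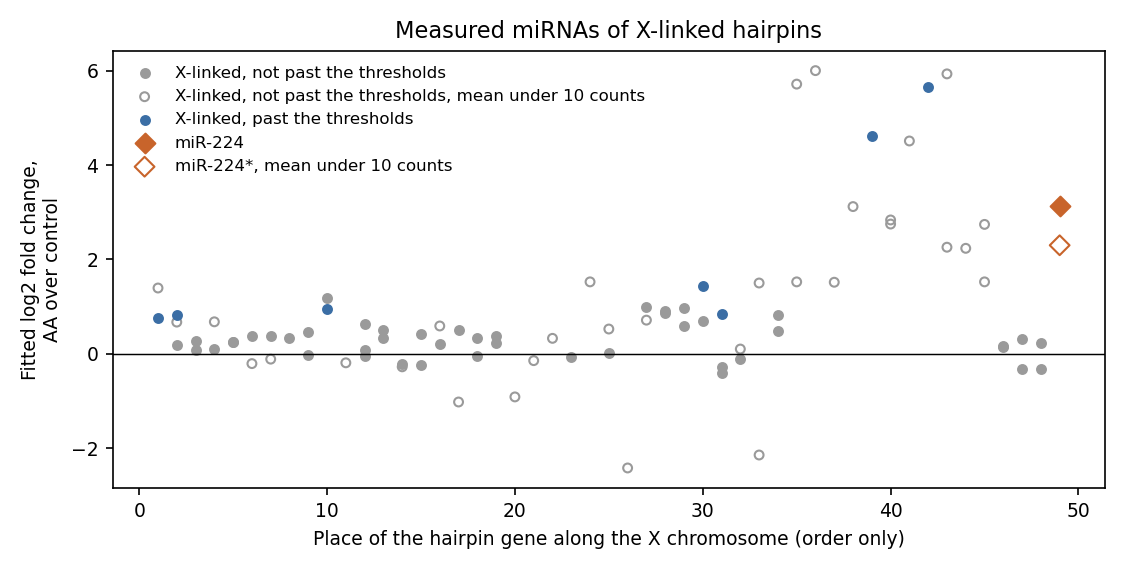
Fitted log2 fold change of AA over control (edgeR) for the measured miRNAs of X-linked hairpins, in the order of their genes along the chromosome, with miR-224 and miR-224* as diamonds. Open symbols have a mean below 10 normalized counts, where the fitted value depends on the prior count of the fit; the miRNAs of Mir547 and Mir201, next to Mir224, lie between -0.33 and 0.31.

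NF-κB and TGF-β signalling are known to act on miR-224 elsewhere, and other miRNAs known to respond to them were counted as lists. Of the 6 NF-κB miRNAs matched, of 7 listed, 2 rose and 0 fell, beside 5.81% of all miRNAs that rose. These were miR-21, an oncogenic miRNA, at 3.83-fold (adjusted p = 2.76e-04 from edgeR), and miR-146b, a brake on NF-κB signalling, at 4.69-fold (adjusted p = 2.85e-04 from edgeR). miR-146a, its close relative in sequence, was among the 4 that did not pass the test. Of the 12 TGF-β miRNAs of the kidney, 1 rose, again miR-21, and 0 fell. The median log2 fold change was 0.21 for the NF-κB list and -0.18 for the TGF-β list, beside 0.05 for all miRNAs.

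A kidney is a mixture of cells, and in whole tissue fewer cells of a type and less RNA per cell cannot be told apart. Of the leukocyte markers, miR-142-3p and miR-223 rose in the AA group, and miR-150 (1.44-fold, adjusted p = 0.133 from edgeR) and miR-142-5p (1.20-fold, adjusted p = 0.632 from edgeR) did not pass the test. Thus 2 of the 4 matched rose, beside 5.81% of all miRNAs, and miR-223 lost its call without control 1, 2 or 3. The AA rats lay above the controls without overlap for 3 of the 4, beside 9.68% of all miRNAs. An unadjusted p under 0.05 (edgeR) was found for 3 of the 4, beside 23.9% of all miRNAs. The summed level of 4 of 5 such markers was 13715 to 17802 normalized counts in controls and 29485 to 56648 in the AA group, without overlap. In the AA rats 1 to 4 it was 35347, 42145, 29485 and 56648, with rat 4 highest, then rats 2, 1 and 3, the same order as for miR-224. In controls 1 to 4 it was 17521, 16254, 17802 and 13715, and this order was not that of miR-224. Control 3 had the highest sum and control 2 the highest miR-224, while control 4 was lowest for both. miR-223 had 1204, 1153, 700 and 1529 normalized counts in AA rats 1 to 4, so that rats 1 and 2 stood in another order than in the sum. None of these 4 markers was at 0, and the sum was mostly miR-142-3p, with 26580 to 53269 normalized counts in the AA group. Of the other 7 marker lists, the summed levels of both groups overlapped. They were 2 of 3 red cell markers, 3 of 3 fibroblast, 2 of 2 smooth muscle, 1 of 1 endothelial, 3 of 3 kidney tubule, 1 of 1 hepatocyte and 2 of 2 neuronal markers. These sums follow their most abundant member, and single markers also differed. miR-124, a neuronal marker, had 0 to 3.67 normalized counts in controls and 6.90 to 24.97 in the AA group (adjusted p = 0.0106 from edgeR). Its AA mean was 4.15-fold against 3 counts per library, whereas miR-9, at 1.21-fold, did not pass the test. The part of leukocytes or of neurons in the level of miR-224 was not tested.

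The fibroblast markers had 6549 to 7896 normalized counts in controls and 7788 to 13669 in the AA group. Of the 3, 0 passed the test, beside 5.81% of all miRNAs that rose, while all 3 had a log2 fold change above 0 and 2 had an unadjusted p under 0.05, beside 23.9% of all miRNAs. The groups did not overlap for miR-199a-3p, which had a mean of 4830 normalized counts in controls and 7313 in the AA group. The kidney tubule markers had 357507 to 1161160 normalized counts in controls and 224279 to 408419 in the AA group, and all 3 were detected in every rat. miR-204 fell to 0.552 times its control level (adjusted p = 0.0357 from edgeR), a call lost in 5 of the 8 fits with 1 rat left out, those without control 1, 2 or 4 or AA rat 1 or 3. miR-194 was at 0.587 times its control level (adjusted p = 0.0515 from edgeR) and passed in the fit without AA rat 1. For both the AA rats lay below the controls without overlap, as was found for 41 of all 620 miRNAs (6.61%), and miR-192, the most abundant of the 3, overlapped. miR-192 was at 0.557 times its control level (adjusted p = 0.168 from edgeR), and at 0.491 to 0.822 times with each rat left out. All 3 tubule markers had a log2 fold change below 0 and an unadjusted p under 0.05 (edgeR), beside 23.9% of all miRNAs at that p. miR-122, the defining miRNA of hepatocytes, was highest in AA rat 2 (7519 normalized counts, against 10.1 to 42.4 in the other AA rats). The part of fibroblasts, tubule cells or hepatocytes in the level of miR-224 was not tested.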

How the data were processed

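The values the authors deposited are read counts per mature miRNA and rat, not normalized. Adaptors and contaminated reads were removed, and reads were assigned by the authors to miRBase release 16 in miRanalyzer, run at its defaults. The submitters' processing notes name CASAVA 1.7. The genome build is not given in the sources used here.

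Median-of-ratios size factors were 0.818 to 1.05 for controls and 0.891 to 1.28 for AA rats. All 620 miRNAs were fitted with edgeR 4.0.16 (quasi-likelihood test, R 4.3.3, no covariate, 8 rats), with Benjamini-Hochberg adjusted p under 0.05 and a ratio of group means over 1.5 in either direction. On simulated data, 76.9% of 195 miRNAs changed 4-fold were recovered, 99.1% of the 117 whose mean reached 10 counts, and 3.85% of the calls were false. The simulation gave every miRNA the same spread between rats and no change other than 4-fold. These rates therefore do not cover smaller changes or miRNAs that vary more between rats. The fold was predicted with ViennaRNA 2.7.2. The other steps used scipy 1.17.1, pandas 2.3.3, matplotlib 3.10.9 and numpy 2.4.6 under Python 3.11.15.

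The members and lists were chosen with earlier results of these data known. Besides the pair, the miRNAs named were the 5 nearest to miR-224 in profile, those sharing a seed, the hairpins next to it and up to 4 of each list with the smallest p. The run from Mir743a to Mir465, miR-449a and miR-146a were named after their values were seen. Alternatives were TMM, total counts, DESeq2 1.42.0, a low count filter, a replicate block and leaving out rats. Rats of a group are different animals, so that p-values cover the spread between animals.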

Additional observations from a re-analysis of the deposited data

Results flagged for a closer look

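In 36 groups of 4 rats, the gap between an extreme rat and the nearest other rat was compared with the range of the group, and 3 groups exceeded the 95% critical value of Dixon's test. Chance gives about 1 in 20. The values of miR-224, miR-224* and the share of the star arm were not among them. The summed kidney tubule markers were highest in control rat 4, at 1161160 normalized counts. The hepatocyte marker miR-122 was highest in control rat 1, at 735 normalized counts, and in AA rat 2, at 7519. For miR-224, control rat 4 was the lowest rat and AA rat 2 the second highest.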

How the results depend on the processing

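miR-224 was higher in the AA rats under every alternative tried, with a log2 ratio of means of 2.91 to 3.43 with each rat left out, 2.77 without both rats numbered 4, 3.21 with TMM and 3.42 with total counts. The change of miR-224* against 3 counts per library was 0.37 to 1.46 on the log2 scale with each rat left out. The share of miR-224* over all rats was 2.48% to 4.16% with each rat left out, 2.24% without both rats numbered 4 and 4.83% as the mean of the rats. With each rat left out it was 3.57% to 6.56% in controls and 2.06% to 4.00% in the AA group. The number of X-linked miRNAs called, 7 in the report, was 13 with total counts, 4 without both rats numbered 4 and 0 to 14 with each rat left out. The cause was not tested. The count over all miRNAs, 56, was 40 to 62 with each rat left out and 42 to 74 with the other settings, and 2 miRNAs of the NF-κB and TGF-β lists were called in every fit. With total counts, 58 of 69 calls were higher in the AA rats, against 36 of 56. Of the 5 miRNAs nearest to miR-224, 3 to 5 remained under each alternative.

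The rats share numbers between the groups, but they are different animals. Over 370 miRNAs, the correlation of the deviations of rats with the same number was -0.01 to 0.34, over 0.1 in 3 of 4 pairs, and 3 of 4 control rats correlated best with the AA rat of their own number. With a replicate block, 74 miRNAs were called, 9 of them X-linked, and the mean log2 ratio of miR-224 over the rats with the same number was 3.24. Depth limits miR-224*, with 37 counts over 8 rats, more than miR-224.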
